A study of Mus musculus with 32 samples.

Results

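The interferon regulatory factors (IRFs) other than Irf9 were followed in cultured mouse neural stem cells (NSCs) exposed to interferon-β (IFN-β). The 6 genes Irf1, Irf2, Irf3, Irf5, Irf7 and Irf8 were chosen by name and matched to their Ensembl identifiers, which gave 6 of the 23035 genes in the footprint tables and 6 of the 39017 genes in the total RNA tables. NSCs came from the ventricular-subventricular zone (vSVZ) of C57BL/6 mice aged 8 to 12 weeks and received IFN-β or vehicle (bovine serum albumin in buffered saline) for 2 h or 14 h. Ribosome footprints (Ribo-Seq), which are the RNA fragments that ribosomes protect, were counted in the coding sequence (CDS), and total RNA from the same lysates was counted over the gene body. Each of the 4 combinations of treatment and time had 4 cultures, which the study describes as taken from different mice. The 2 h cultures are numbered 2, 3, 5 and 6 and the 14 h cultures 1 to 4, and each time had its own vehicle libraries, so that time and preparation cannot be told apart. Libraries were made from bulk cultures, in which fewer cells of a type cannot be told apart from less RNA per cell.

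IRFs are transcription factors that bind the interferon-stimulated response element (ISRE) and related sequences through a shared DNA-binding domain. Irf3 and Irf7 are activated by phosphorylation downstream of sensors of foreign nucleic acid and switch on the type I interferon genes, and Irf7 is itself an interferon-stimulated gene (ISG). Irf1 is an activator induced by interferons through the gamma-activated sequence (GAS), Irf2 is known as a relative of Irf1 that competes for its sites, and Irf5 and Irf8 are best known from immune cells, Irf8 being required in microglia and other myeloid cells.

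In the GRCm38 annotation the members lie at chr11:53770014-53778374 (Irf1, ENSMUSG00000018899, plus strand), chr8:46739732-46847458 (Irf2, ENSMUSG00000031627, plus strand), chr7:44997648-45002848 (Irf3, ENSMUSG00000003184, plus strand), chr6:29526625-29541871 (Irf5, ENSMUSG00000029771, plus strand), chr7:141262706-141266481 (Irf7, ENSMUSG00000025498, minus strand) and chr8:120736358-120756694 (Irf8, ENSMUSG00000041515, plus strand). The RefSeq promoter windows of the same build, from 250 bases before to 50 bases after each annotated start, were searched on both strands for the ISRE letters GAAANNGAAA and the GAS letters TTCNNNGAA. All 6 members had a window. Irf1, Irf2 and Irf8 held the GAS letters and Irf2 also the ISRE letters, and the other 3 members, Irf3, Irf5 and Irf7, held neither. Of 32851 promoter windows of this length, 3.44% held the ISRE letters and 8.3% the GAS letters. The matches are shown because ISRE and GAS are the elements through which interferon signalling is known to act, with the matched letters in capitals and the plus strand printed 5′ to 3′. The ISRE and GAS matches in Irf2 do not overlap each other, although the bases printed around them do. They are matches of letters, and binding was not measured.
Irf1, GAS letters 90 bases before the start, chr11:53769914-53769942: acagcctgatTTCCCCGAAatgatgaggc
Irf2, ISRE letters 241 bases before the start, chr8:46739495-46739523: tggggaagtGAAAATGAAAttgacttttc
Irf2, GAS letters 224 bases before the start, chr8:46739511-46739539: aaattgacttTTCCGAGAAatgatgaaag
Irf8, GAS letters 171 bases before the start, chr8:120736177-120736205: caaaagtgatTTCTCGGAAagagagcgct
Irf8, GAS letters 153 bases before the start, chr8:120736195-120736223: aagagagcgcTTCAGAGAAggcggatttg

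Footprint libraries held 2956297 to 10505108 counts and total RNA libraries 1370008 to 7877753. Footprints of all 10 NSC markers checked were present in every group, summing to 10820 to 18230 CPM (counts scaled to a common library total). Total RNA did not match these footprints. Sox2, a transcription factor that defines NSCs, had 0 total RNA counts in all 16 libraries against 646 to 3537 footprints, and Vim, which encodes the intermediate filament vimentin, had 3 to 103 total RNA counts against 9251 to 52430 footprints. Across the 10314 genes with a mean of at least 50 footprints, Spearman's rho between mean footprints and mean total RNA counts was 0.250, a description across genes, which are not independent replicates. In 1 total RNA library, vehicle 14 h replicate 3, the RNA gene Gm42418 took 39.3% of counts, against 0.0619% to 0.612% in the other 15. The footprint comparisons therefore come first below, and no mRNA level is read from the total RNA counts.

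Footprints of Irf1, Irf2, Irf7 and Irf8 rose within 2 h of IFN-β, by 12.0-fold, 2.78-fold, 83.0-fold and 5.30-fold. These were 4 of the 5 members that had enough counts to be tested (at least 10 in 4 or more libraries), and none fell. Irf7 and Irf8 passed this filter only with their IFN-β libraries, so a fall of either could hardly have been tested. Over all 12104 genes tested at 2 h, 5.25% were called higher by edgeR, which throughout means its quasi-likelihood test with p-values adjusted over all genes by the Benjamini-Hochberg method (threshold 0.05). At 14 h, 3 of 4 tested members (Irf1, Irf2 and Irf7) were called higher, where 26.2% of all genes were called higher and 26.3% lower. Irf7 passed the filter at 14 h, too, only with its IFN-β libraries. Vehicle and IFN-β libraries did not overlap for the same 4 and 3 members, against 7.68% and 23.4% of all genes that lay wholly higher with IFN-β. The median log2 fold change was 2.41 over the 5 members tested at 2 h, against -0.02 over all genes tested. Over the 4 members tested at 14 h, without Irf8, it was 1.76, against 0.00. These medians cover different sets, so their difference is not a change of the family over time. The counts of members and the medians include the members that passed the filter only with IFN-β.

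**Figure D1:**
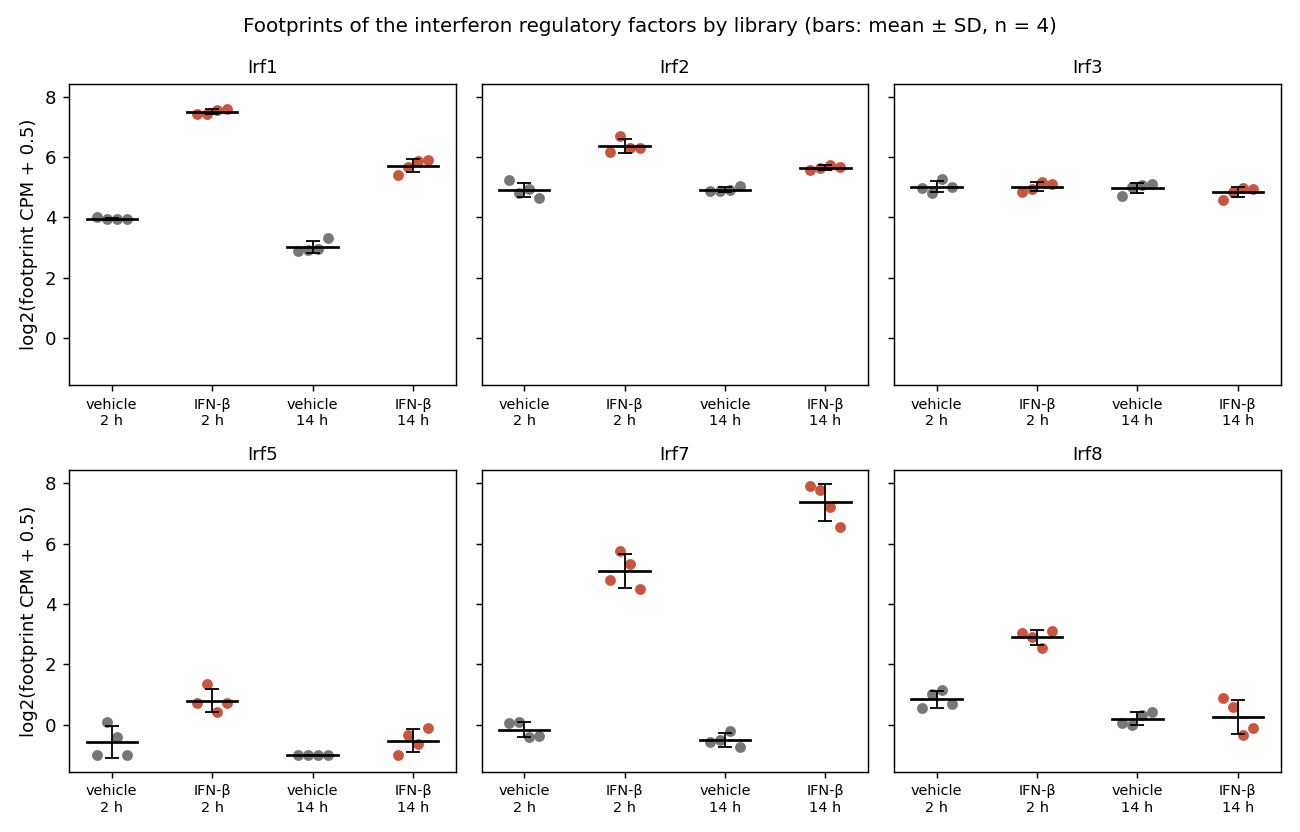
Footprint CPM of each factor on a log2 scale with 0.5 added, 1 point per library, with the mean and SD of 4 libraries per group. Irf1, Irf2, Irf7 and Irf8 are higher with IFN-β at 2 h, Irf7 is higher still at 14 h, Irf8 overlaps vehicle at 14 h, and Irf3 overlaps in all 4 groups.

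Irf1, the activator, was present in vehicle cultures and rose early. At 2 h its footprints were at 15.5, 14.8, 15.0 and 14.9 CPM in the vehicle libraries (replicates 2, 3, 5 and 6) and at 173, 171, 186 and 193 CPM with IFN-β. At 14 h they were at 6.81, 6.98, 7.30 and 9.40 CPM with vehicle (replicates 1 to 4) and at 42.3, 50.5, 57.3 and 59.2 CPM with IFN-β. The groups did not overlap at either time, and every IFN-β library at 14 h was below every IFN-β library at 2 h. In edgeR the log2 fold change was 3.59 (SE 0.08, adjusted p = 5.94e-08) at 2 h and 2.77 (SE 0.13, adjusted p = 1.51e-09) at 14 h. The change at 14 h was smaller than that at 2 h by 0.81 on the log2 scale (log2 difference -0.81, SE 0.16, adjusted p = 0.00106 for the interaction in edgeR).

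Irf2, the relative of Irf1 that can compete for its sites, changed less. At 2 h the vehicle libraries held 36.9, 27.8, 30.4 and 24.5 CPM and the IFN-β libraries 71.7, 104, 79.1 and 78.1 CPM. At 14 h they held 28.5, 28.8, 29.4 and 32.3 CPM with vehicle and 46.7, 49.5, 52.6 and 50.7 CPM with IFN-β. Vehicle and IFN-β libraries did not overlap at either time, and the vehicle levels at 14 h lay within the vehicle range at 2 h. The log2 fold change was 1.47 (SE 0.15, adjusted p = 3.24e-04 in edgeR) at 2 h and 0.74 (SE 0.07, adjusted p = 1.61e-06) at 14 h, where the fold was 1.67. The log2 difference between the times was -0.72 (SE 0.17, adjusted p = 0.00497 for the interaction in edgeR).

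Irf7, the factor that amplifies type I interferon production, was close to absent with vehicle and had the largest fold of the members tested at both times. Its vehicle libraries held 5, 4, 2 and 2 footprint counts at 2 h and 1, 2, 3 and 1 at 14 h. With IFN-β it reached 27.4, 54.1, 39.5 and 22.2 CPM at 2 h (134 to 283 counts) and 240, 218, 149 and 94.6 CPM at 14 h (715 to 1526 counts). Every IFN-β library at 14 h was above every IFN-β library at 2 h. The log2 fold change was 6.37 (SE 0.41, adjusted p = 1.26e-05 in edgeR) at 2 h and 9.59 (SE 0.48, adjusted p = 2.82e-09) at 14 h. These folds rest on vehicle totals of 13 and 7 counts, and the ratio of summed counts was 83.4 (95% exact counting interval 48.5 to 157) at 2 h and 775 (376 to 1929) at 14 h.

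Whether the higher change of Irf7 at 14 h passed the threshold depended on the fit. Without the replicate block the log2 difference between 14 h and 2 h was 3.25 (SE 1.27, adjusted p = 0.0616 in edgeR). With the replicate number as a block, which pairs footprint libraries of the same number, it was 3.21 (SE 0.61, adjusted p = 6.61e-05 in edgeR). It also passed in DESeq2 (adjusted p = 3.85e-04), and in edgeR without IFN-β 2 h replicate 3 (adjusted p = 0.0385) or without IFN-β 14 h replicate 4 (adjusted p = 0.0209). Of the 5 members tested for a difference between times, 3 were called lower at 14 h (Irf1, Irf2 and Irf8), against 15.5% of all genes tested. Irf8 entered that test only through its IFN-β libraries of 2 h, which favours a lower call.

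Irf8, the myeloid factor, was low with vehicle and rose at 2 h. Its footprints were at 0.956, 1.54, 1.72 and 1.10 CPM in the vehicle libraries (8 to 13 counts) and at 7.83, 6.95, 5.30 and 8.12 CPM with IFN-β (34 to 62 counts). The groups did not overlap, with a log2 fold change of 2.41 (SE 0.25, adjusted p = 2.95e-04 in edgeR). At 14 h the vehicle libraries held 3, 5, 6 and 9 counts and the IFN-β libraries 4, 7, 2 and 4, which overlap and fell under the filter on low counts. The ratio of summed counts there was 0.971 (95% exact counting interval 0.487 to 1.90; two-sided exact permutation test over 4 and 4 libraries, p = 0.714). In the fit over both times the log2 difference was -2.41 (SE 0.52, adjusted p = 0.00237 for the interaction in edgeR). Irf8 passed the filter of that fit only with its IFN-β libraries of 2 h.

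Because Irf8 is a myeloid gene, the whole microglial marker list was measured beside it. Of its 16 genes, 4 had any footprint in vehicle 2 h cultures, 5 with IFN-β at 2 h, 7 with vehicle at 14 h and 8 with IFN-β at 14 h. The summed level at 2 h spanned 98.2 to 140 CPM in vehicle libraries and 96.1 to 126 CPM in IFN-β libraries, and that at 14 h 91.8 to 102 CPM and 110 to 120 CPM, with Itgam and P2ry12 among the genes that had footprints. The defining markers Cx3cr1, Aif1, C1qa, C1qc, Trem2, Tyrobp and Fcrls were at 0 footprints in all 16 libraries, and Spi1, the lineage factor that pairs with Irf8, had 1 count in all. The summed level overlapped between vehicle and IFN-β at 2 h, where Irf8 did not, and did not overlap at 14 h, where Irf8 did. Of 3 other lists of 5 markers each, endothelial (7.55 to 17.4 CPM over all libraries) and oligodendrocyte genes (0.965 to 20.3 CPM) overlapped between the treatments at each time. Neuroblast markers did move, spanning 248 to 281 CPM in vehicle libraries against 401 to 502 CPM in IFN-β libraries at 2 h and 234 to 255 CPM against 185 to 211 CPM at 14 h, most of it Sox11, and their part in the results was not tested.

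Irf3, the constitutive factor that phosphorylation activates, held 70 to 354 footprint counts in every library and no change was called. Its footprints were at 30.8, 27.8, 38.1 and 31.8 CPM with vehicle and 28.2, 30.0, 36.0 and 34.3 CPM with IFN-β at 2 h. The 14 h libraries held 25.8, 31.8, 33.5 and 33.6 CPM with vehicle and 23.5, 28.5, 30.8 and 30.4 CPM with IFN-β. All groups overlapped. The log2 fold change was 0.00 (SE 0.13, adjusted p = 0.995 in edgeR) at 2 h and -0.13 (SE 0.10, adjusted p = 0.291) at 14 h.

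Irf5 was at the limit of detection in footprints and was not tested with the other genes. It had 0, 4, 2 and 0 counts with vehicle and 9, 10, 6 and 7 with IFN-β at 2 h, and 0 in all vehicle libraries and 0, 2, 1 and 4 with IFN-β at 14 h. The 2 h groups did not overlap, with a ratio of summed counts of 6.43 (95% exact counting interval 2.65 to 18.8). The two-sided exact permutation test gave p = 0.0286, the smallest that 4 against 4 libraries allow, or 0.0857 with Benjamini-Hochberg adjustment over the 3 tests of this kind. At 14 h the level with IFN-β was 3.07-fold a floor of 3 counts assumed for the vehicle group (exact permutation p = 0.143). This ratio leaves out the counting error of the 7 IFN-β counts and is not a lower bound.

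**Figure D2:**
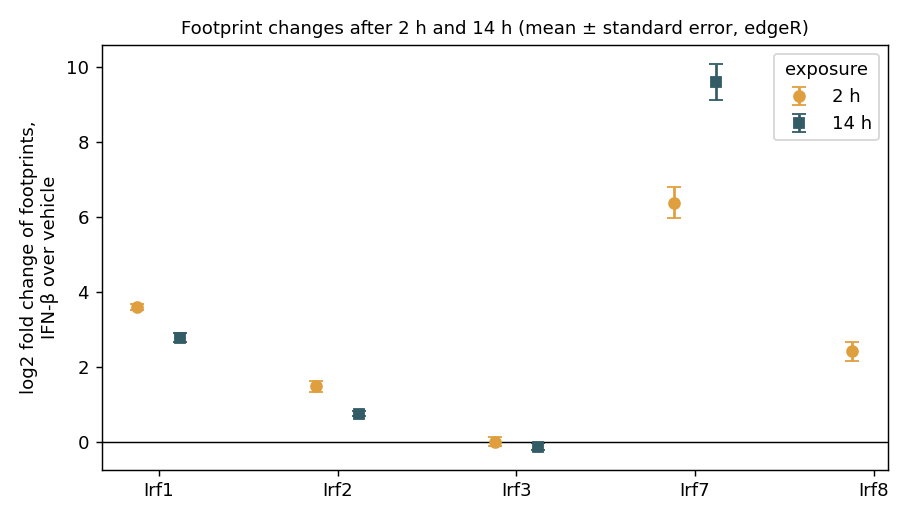
Log2 fold change of footprints, IFN-β over vehicle, for the members tested, with the standard error from edgeR (circles 2 h, squares 14 h, 4 libraries per group). Irf1 lies at 3.59 and 2.77 at the 2 times, Irf2 at 1.47 and 0.74 and Irf7 at 6.37 and 9.59, Irf3 lies at the line of no change, and Irf8 was tested at 2 h only.

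The changes reordered the family. To set members side by side, footprint CPM was divided by the length of the annotated CDS in kb. With vehicle, Irf2 (27.6 ± 4.84 CPM per kb at 2 h and 27.5 ± 1.59 at 14 h, SD, n = 4) and Irf3 (25.6 ± 3.45 and 24.8 ± 2.93) led, and their ranges overlapped. Irf1 came next in vehicle cultures, at 14.4 ± 0.308 and 7.31 ± 1.15 CPM per kb. Irf8 followed at 1.04 ± 0.283 and 0.518 ± 0.133, above Irf7 at 0.292 ± 0.114 and 0.151 ± 0.0830, while Irf5, at 0.128 ± 0.165 and 0, overlapped Irf7 at 2 h.

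After 2 h of IFN-β, Irf1 led at 173 ± 10.4 CPM per kb and did not overlap Irf2, which was second at 76.8 ± 13.1. Irf7, at 25.6 ± 10.2, and Irf3, at 25.6 ± 2.90, could not be ordered, and Irf8 (5.54 ± 0.998) and Irf5 (0.802 ± 0.322) were lowest. After 14 h Irf7 led at 126 ± 47.6 CPM per kb, with every library above every other member. Irf1 (50.2 ± 7.35) and Irf2 (46.1 ± 2.29) overlapped, Irf3 was at 22.5 ± 2.66, and Irf8 (0.603 ± 0.386) and Irf5 (0.134 ± 0.114) overlapped at the bottom. In the vehicle libraries the log2 ratio of Irf1 to Irf2 per kb was -0.92 ± 0.221 at 2 h and -1.92 ± 0.132 at 14 h, and with IFN-β it was 1.19 ± 0.280 and 0.11 ± 0.155 (SD, n = 4). Irf1 was thus below Irf2 in all 8 vehicle libraries and above it in all 4 IFN-β libraries at 2 h.

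Summed over the 6 members, footprint density was 69.1 ± 6.30 CPM per kb with vehicle and 308 ± 20.1 with IFN-β at 2 h, and 60.3 ± 5.16 and 245 ± 37.7 at 14 h (SD, n = 4). Irf1 made up 56.5 ± 4.70% of this sum with IFN-β at 2 h and 21.2 ± 6.30% at 14 h. Irf7 made up 8.24 ± 2.84% at 2 h and 49.9 ± 12.4% at 14 h, against 0.426 ± 0.173% and 0.253 ± 0.135% with vehicle. The share of Irf1 was thus highest at 2 h of IFN-β and that of Irf7 at 14 h. Irf3 went from 37.1 ± 3.90% with vehicle to 8.31 ± 0.858% with IFN-β at 2 h without a called change of its own.

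**Figure D3:**
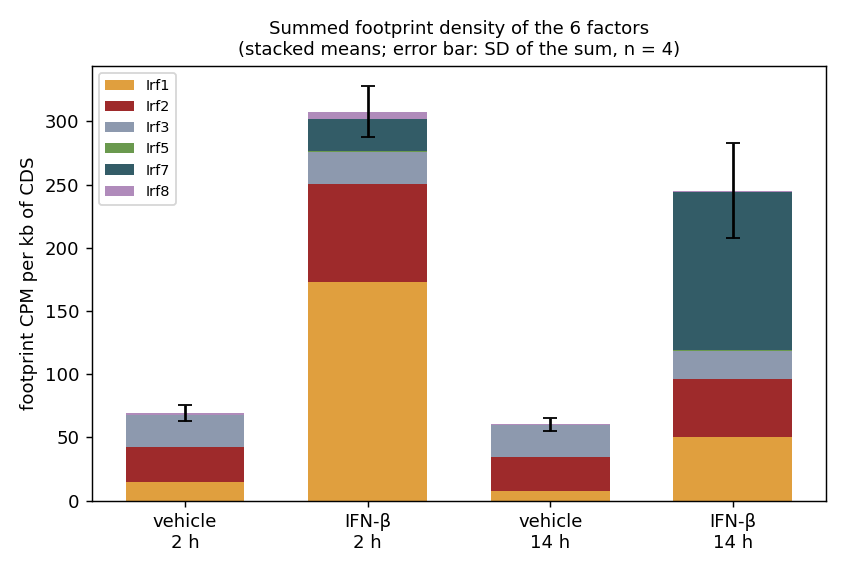
Footprint CPM per kb of CDS, stacked as group means of the 6 factors, with the SD of the sum over 4 libraries. Irf2 and Irf3 fill most of the vehicle bars, Irf1 most of the bar for 2 h of IFN-β and Irf7 about as much of the 14 h bar as all others together (49.9%).

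The genes whose footprint pattern over the 16 libraries was most like each member's were named from 10262 genes by Pearson's r of log2 CPM, as a description over libraries that share groups and depth. Trim56 (r = 0.982), Cd274 (0.980) and Spsb1 (0.980) were closest to Irf1. Cd274, which encodes the immune checkpoint ligand PD-L1, was also closest to Irf2 (0.963), followed by Pgs1 (0.962) and Tnfrsf1a (0.958). Eif2ak2, which encodes the kinase PKR, was closest to Irf7 (0.995), followed by Samd9l (0.994). The closest to Irf3 was Gm5145, at 0.859.

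Among 17 genes of the pathways that activate IRFs, 5 of the 16 tested rose in footprints at 2 h and 12 at 14 h, and none fell (median log2 fold change 0.36 and 0.58), where 5.25% and 26.2% of all genes were called higher. The RNA sensors Ifih1, Ddx58 and Tlr3 rose at both times, and no change was called for the DNA sensor Cgas (0.88 and 0.02). Ifih1, which encodes MDA5, changed by 4.75 at 2 h and 8.72 at 14 h on the log2 scale, Ddx58, which encodes RIG-I, by 4.20 and 5.76, and Tlr3 by 2.11 and 3.86. The adaptor Myd88 changed by 2.25 and 3.00. Tbk1, the kinase that phosphorylates Irf3 and Irf7, rose by 0.35 at each time (adjusted p = 0.0323 and 3.06e-04 in edgeR). The adaptor Mavs (-0.16 and -0.02) and the kinase Irak1 (0.06 and 0.02) were not called. Of the same 16 genes, 8 were called higher in the difference between the times (14 h minus 2 h) and none was called lower, where 15.4% of all genes were called higher. Among the 8 were Traf3 (-0.61 and 0.54) and Traf6 (-0.20 and 0.17), ubiquitin ligases of these pathways whose values lay on opposite sides of 0 at the 2 times. Of these values only Traf3 at 14 h was called (adjusted p = 2.01e-04 in edgeR). Traf3 at 2 h (adjusted p = 0.0635) and Traf6 at 2 h and 14 h (0.515 and 0.0594) were not.

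Of 14 genes whose products pair with IRFs or regulate them, 4 of 11 tested rose at 2 h, and 7 of 10 rose and 2 fell at 14 h (median log2 fold change 0.05 and 0.30), where 5.25% of all genes were called higher at 2 h, and 26.2% higher and 26.3% lower at 14 h. The 2 that fell are thus near the share of all genes. Stat2 (4.03 and 4.63 on the log2 scale at 2 h and 14 h), which pairs with Irf9, rose at both times, as did Trim21, a ubiquitin ligase of IRFs (3.93 and 3.74). Batf3, a partner of Irf8 in myeloid cells, rose by 2.69 at 2 h (SE 0.27, adjusted p = 2.41e-04 in edgeR), from 15 to 83 counts in all. It passed the filter there only through its IFN-β libraries. Like Irf8 it fell under the filter at 14 h, with 18 counts over the vehicle libraries and 2 over the IFN-β libraries. The genes that fell at 14 h were Kpna2, an importin (log2 fold change -1.07), and Irf2bp1, an Irf2 corepressor (-0.22).

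Among 22 genes known as IRF targets, 13 of 14 tested rose at 2 h (5.25% of all genes) and 14 of 15 at 14 h (26.2%), with medians of 3.98 and 6.18 on the log2 scale. Ifit1 changed by 7.19 and 12.58, Isg15, a ubiquitin-like modifier, by 6.87 and 11.33, and Cxcl10, a chemokine, by 6.90 and 9.36. The antigen presentation genes Psmb8 (4.51 and 9.08), Nlrc5 (4.44 and 7.89) and B2m (1.44 and 4.50) were also higher at both times. In the difference between the times, 12 of 15 tested were called higher, against 15.4% of all genes. Irf9, the family member left out of the set, changed by 4.49 at 2 h and 5.75 at 14 h, with a log2 difference of 1.25 (adjusted p = 0.00347 in edgeR). Irf4, a family member of lymphoid cells, had at most 2 footprints in a library.

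The total RNA counts of the members may hold reads from the opposite strand, which was not tested, so that the values below are those of each gene's entry in the tables. In total RNA, Irf1 was the member that passed the test at each time, 1 of 5 tested, where 0.722% of all genes were called higher at 2 h and 3.47% at 14 h. Its counts were 8, 10, 4 and 20 with vehicle and 46, 49, 40 and 21 with IFN-β at 2 h, and 2, 9, 2 and 4 with vehicle and 57, 53, 45 and 39 with IFN-β at 14 h. In CPM the groups did not overlap at either time, as for 1 of 5 members at 2 h, where 2.58% of all genes lay wholly higher with IFN-β, and for 2 of 5 at 14 h, Irf1 higher and Irf3 lower, where 12.4% of all genes did not overlap in either direction. The log2 fold change was 1.75 (SE 0.32, adjusted p = 0.0249 in edgeR) at 2 h and 3.00 (SE 0.38, adjusted p = 8.93e-05) at 14 h. The 2 h call was lost with scaling by total counts alone (adjusted p = 0.0530), with the replicate block (adjusted p = 0.121) and without any 1 of 6 libraries, IFN-β or vehicle replicate 2, 3 or 5 (adjusted p from 0.0570 to 0.105). Without vehicle 14 h replicate 3, the library rich in Gm42418, the 14 h value was 3.04 (adjusted p = 9.85e-05 in edgeR).

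The other members showed no called change in total RNA. The log2 fold changes at 2 h and 14 h were 0.63 and 0.12 for Irf2, 0.28 and -1.04 for Irf3, 0.15 and -0.23 for Irf5 and 0.18 and 0.17 for Irf7. Irf3 at 14 h was nearest the threshold (SE 0.31, adjusted p = 0.0627 in edgeR). None of 5 tested members differed between the times (0 called, against 0.639% of all genes; in edgeR, Irf1 and Irf3 had an unadjusted p of 0.0257 and 0.0285, and no alternative fit called a member).

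Neighbours on the other strand bear on these counts, since the RNA kit kept strand and the strand setting of the counting is not given in the sources used here. Gm17334 lies inside Irf1 on the other strand and shares 135 bases of exon with it (3.4% of Irf1 exon sequence). At 2 h its total RNA counts spanned 19 to 50 in vehicle libraries and 365 to 779 in IFN-β libraries, and at 14 h 2 to 12 and 35 to 105, while it had 1 footprint in all 16 libraries. Its total RNA log2 fold change was 3.84 at 2 h (adjusted p = 3.65e-05 in edgeR) and 2.85 at 14 h (adjusted p = 1.69e-05), beside 3.59 and 2.77 for Irf1 footprints. Irf5 had 45 to 1892 total RNA counts and 0 to 10 footprints per library, whereas Tnpo3, which overlaps it on the other strand by 411 bases of exon, had 1 to 37 total RNA counts and 364 to 1585 footprints. Exons of Irf7 overlap those of Phrf1 by 45 bases and exons of Irf3 those of Bcl2l12 by 88 bases, both on the other strand. Mean Phrf1 total RNA was 6.13 CPM with vehicle and 9.02 with IFN-β at 2 h, and 5.85 and 10.8 at 14 h. Irf7 footprints were at 0.408 and 35.8 CPM, and at 0.211 and 175.5. As the shared 45 bases are 1.19% of Irf7 exon sequence, Phrf1 could take up few reads from Irf7. Its values therefore cannot show on which strand Irf7 reads were counted, which was not tested. Mean Bcl2l12 total RNA was 78.2 and 69.2 CPM at 2 h, and 67.5 and 87.8 at 14 h.

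**Figure D4:**
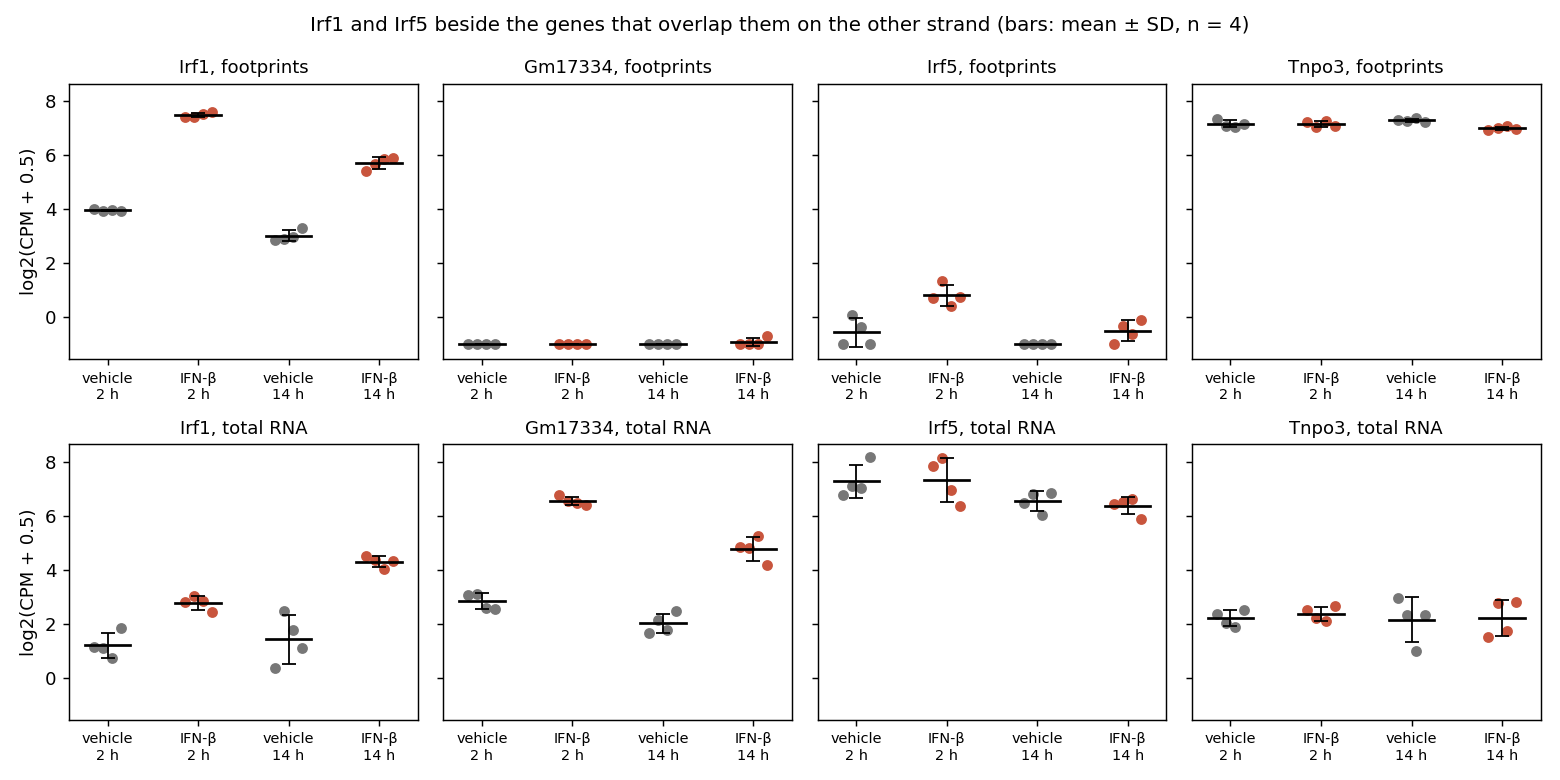
Log2 CPM (0.5 added) of footprints (top) and total RNA (bottom) for Irf1 and Irf5 and the gene overlapping each on the other strand, 1 point per library with mean and SD of 4. The pattern of Irf1 footprints (3.59 at 2 h) recurs in the total RNA of Gm17334 (3.84), and the abundant footprints of Tnpo3 lie opposite the abundant total RNA of Irf5. The overlapping neighbours of Irf3 and Irf7 are not shown.

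Irf8 had 0 total RNA counts in all 16 libraries. It lies wholly inside Gm20388, a gene annotated at chr8:119910841-124345722 on the same strand, and the counting mode named by the study leaves out a read that overlaps more than 1 gene. Of the 69 genes with a total RNA entry that lie inside Gm20388 on its strand, 69 were at 0 in all libraries, and of the 107 on the other strand 22 were. The 0 of Irf8 was thus shared with every gene counted on the same strand in that interval, 24 of which had a mean of at least 50 footprints.

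Translation efficiency (TE), the footprint change over the total RNA change, was called higher (adjusted p under 0.1 in edgeR) for 2 of 5 tested members at 2 h, against 0.581% of all genes, and for 1 of 5 at 14 h, against 4.54%. Irf1 had a log2 TE change of 1.89 at 2 h (SE 0.32, adjusted p = 0.00386 in edgeR) and -0.31 at 14 h (adjusted p = 0.800), and the 2 h call was lost with scaling by total counts alone (adjusted p = 0.413). For Irf7 the values were 6.22 (SE 0.61, adjusted p = 1.15e-05) and 9.33 (SE 0.67, adjusted p = 7.03e-10), close to its footprint changes, with total RNA at 23 to 59 counts in the 2 h libraries and 7 to 43 in the 14 h libraries. The changes of Irf2 (0.88 and 0.56 at 2 h and 14 h), Irf3 (-0.23 and 0.89) and Irf5 (2.48 and 3.73, from footprints of 0 to 10 counts) were not called, and Irf5 at 14 h was called in DESeq2 (adjusted p = 0.0247) and with the replicate block (adjusted p = 0.0261 in edgeR). Each TE value carries the total RNA counts above, and how far strand or overlap set them was not tested. As no mRNA level is read from those counts, no change of translation per mRNA is read from the TE values. No TE could be estimated for Irf8.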

How the data were processed

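Footprints and total RNA of 32 libraries were analysed, grouped by their labels. The authors trimmed reads with Trim Galore (0.4.4), mapped them with Bowtie (0.12.7) to the mouse transcriptome (mm10, the build called GRCm38 here), removed duplicates and counted reads per gene; the deposited values are raw counts in the CDS for footprints and over the gene body for total RNA. Genes reaching 10 counts in 4 or more libraries were tested with edgeR (4.0.16), TMM scaling and quasi-likelihood tests, in treatment by time and treatment by kind models, with Benjamini-Hochberg adjustment over all genes. CPM used TMM-scaled library sizes. Some of the fits were checked on simulated libraries. These were drawn independently with a common dispersion, so the check does not bear on the pairing of libraries. DESeq2 (1.42.0), limma-voom (3.58.1), total-count scaling, other filters, left-out libraries and a replicate block were the alternatives. Counting intervals cover counting error only.

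Same-numbered vehicle and IFN-β libraries deviated together in footprints (r = 0.328 to 0.812 at 2 h and 0.192 to 0.418 at 14 h). The main fits carried no replicate block, so their standard errors, adjusted p-values and shares of all genes do not use this pairing. It entered only in the fits with the replicate block. In total RNA r was -0.477 to 0.390 and -0.0120 to 0.258.

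The members and gene lists were chosen with earlier results of these data known. Named genes were the members, their overlapping neighbours, genes of the fixed lists and the 3 genes most correlated with each member of sufficient counts. Gene models were those of GENCODE M21 (GRCm38), in which 22282 of 23035 footprint genes and 37693 of 39017 total RNA genes matched. Promoters were from RefSeq (GRCm38.p6). Protein sequences were not used here, and a few genes of the lists are not reported here.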

Additional observations from a re-analysis of the deposited data

Results flagged for a closer look

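The footprint response of 3 members differed between exposure times by the interaction test in edgeR, which is why they are listed here. The log2 difference, 14 h minus 2 h, was -0.81 for Irf1, -0.72 for Irf2 and -2.41 for Irf8. Irf8 passed the filter of that fit only with its IFN-β libraries of 2 h, where it was high. That selection favours a negative difference, so its value does not stand on a par with those of Irf1 and Irf2. In 38 member and group combinations checked for a library far from the other 3, none stood out by Dixon's criterion.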

How the results depend on the processing

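The number of members called in footprints at 2 h, at 14 h and between the times stayed within 1.5 times the reported number under every alternative run, and no member reversed direction past a threshold. In total RNA at 2 h no member (0) was called with total counts alone for scaling, under a minimum mean of 50 counts or with the replicate block, and 0 to 1 when 1 library was left out. In total RNA at 14 h 0 were called under a minimum mean of 50 counts. For TE at 2 h 1 was called with total counts alone and 0 under a minimum mean of 50 counts. For TE at 14 h 2 were called with DESeq2, limma-voom, no filter or the replicate block, the added member being Irf5, 0 under a minimum mean of 50 counts, and 1 to 2 when 1 library was left out, with Irf3 added without IFN-β replicate 1. A minimum mean of 50 counts leaves 1 member tested in total RNA and 0 in TE, and the other causes were not tested.

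The block in the paired fits changed the member calls named above (Irf7 between the times, Irf1 in total RNA at 2 h, Irf5 in TE at 14 h) and no others. Over all genes it raised the calls from 878 to 3538 in footprints at 2 h and from 3867 to 6944 between the times, and gave 63 against 93 in total RNA at 2 h and 743 against 1141 for TE at 14 h. Across all alternatives the calls over all genes ran from 605 to 3538 in footprints at 2 h, from 5649 to 7609 at 14 h, from 3222 to 6944 between the times, from 44 to 174 (main 93) in total RNA at 2 h, from 247 to 694 (main 474) at 14 h, from 37 to 214 (main 76) between the times, and from 27 to 250 (main 115) and 382 to 1517 (main 1141) for TE at 2 h and 14 h. Scaling by total counts alone shifted the all-gene median in total RNA at 2 h from 0.04 to 0.23 on the log2 scale and for TE at 2 h from -0.04 to -0.34. With it the split of higher to lower calls in total RNA was 180 to 93 at 14 h, against 261 to 213, and 32 to 26 between the times, against 63 to 13.

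Irf5, Irf7 with vehicle and Irf8 at 14 h rest on few counts, so that differences there are not detectable at this depth unless large.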
